A study of Mus musculus with 21 samples.

Results

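RNA levels of 8 genes were followed in whole mouse uteri at 3 ages: Pamr1, a gene of a secreted peptidase-like protein, and 7 genes commonly used to identify fibroblasts, namely Pdgfra, Pdgfrb, Thy1, Cd34, Dpt, Clec3b and Vim. They are 8 of the 12791 genes listed, matched by symbol. Pamr1 was chosen by its higher level in aged uteri in these same libraries, so its differences between aged and younger uteri are given as values with no test. The other 7 genes are known fibroblast markers, listed with earlier results of these data known, and are tested in a fit across all genes. All 8 had reads in every library, from 27 to 7685 for Pamr1 and from 4387 to 41041 for Vim.

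The mice were wild type C57BL/6J females, 5 weeks old (7 libraries), 8 weeks old (7 libraries) or aged (6 libraries). All of them, young and aged, were injected with pregnant mare serum gonadotropin, a hormone with follicle-stimulating activity, at 5 or 7.5 units, and the uterus was removed 48 hours later. The labels do not assign the doses to animals. In each age group replicates 1 and 2 form an earlier set and the others a later set, and the aged mice were 60 to 75 weeks old in the earlier set (2 libraries) and 79 weeks old in the later set (4 libraries). The labels name 2 sequencing instruments and 2 purification kits without assigning them. Read lengths of 60 bases (single reads) and 150 bases (paired reads) are recorded too, and may also differ between the sets. Instrument, kit, read length and exact age thus cannot be told apart between the sets. Levels are in CPM, the share of a library's counted reads that fell on a gene, scaled to the same total in every library.

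Fibroblasts make and maintain the collagen-rich matrix of connective tissue, and in the uterus they form the endometrial stroma and lie between the muscle bundles and around the vessels. PDGF ligands from epithelium and endothelium bind the receptors Pdgfra and Pdgfrb, which signal growth and migration, with Pdgfra mostly on fibroblasts and Pdgfrb also on the pericytes that wrap small vessels. Thy1 and Cd34 are surface glycoproteins that fibroblasts share with other cells: Thy1 with T cells and neurons, Cd34 with vascular endothelium and blood progenitors. Dpt (dermatopontin) and Clec3b (tetranectin) are secreted into the matrix, where Dpt helps collagen fibrils form and Clec3b binds plasminogen. Vim (vimentin) is the intermediate filament protein of mesenchymal cells in general. Pamr1 carries CUB, EGF-like and peptidase-like domains and was named for its expression in regenerating muscle.

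Promoter sequences were matched for 4 of the 8 genes, Pdgfra, Cd34, Dpt and Vim, and all 4 are shown. Whether their letters bear on the levels of these genes was not tested. Each runs 5′ to 3′ on the plus strand, from 250 bases before to 50 bases after the start of the gene, in RefSeq on GRCm38.p6, and capitals mark the TATA box letters TATAAA.
Pdgfra, chr5:75152001-75152300: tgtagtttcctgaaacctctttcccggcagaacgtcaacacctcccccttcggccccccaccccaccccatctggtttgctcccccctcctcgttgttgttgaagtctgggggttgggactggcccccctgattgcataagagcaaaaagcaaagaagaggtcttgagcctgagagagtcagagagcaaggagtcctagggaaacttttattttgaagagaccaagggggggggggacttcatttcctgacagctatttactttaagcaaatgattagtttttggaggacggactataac
Cd34, chr1:194938571-194938870: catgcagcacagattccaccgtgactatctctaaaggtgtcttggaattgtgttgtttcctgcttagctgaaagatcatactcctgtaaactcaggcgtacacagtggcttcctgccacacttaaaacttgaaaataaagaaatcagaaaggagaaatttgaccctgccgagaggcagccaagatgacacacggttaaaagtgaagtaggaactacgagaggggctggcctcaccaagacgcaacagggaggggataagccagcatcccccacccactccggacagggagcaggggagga
Vim, chr2:13574061-13574360: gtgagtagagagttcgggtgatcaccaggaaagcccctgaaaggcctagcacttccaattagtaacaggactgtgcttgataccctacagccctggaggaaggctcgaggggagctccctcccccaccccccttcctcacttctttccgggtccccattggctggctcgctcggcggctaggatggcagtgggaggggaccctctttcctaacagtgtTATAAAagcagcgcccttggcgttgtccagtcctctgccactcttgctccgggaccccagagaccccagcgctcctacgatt
Dpt, chr1:164796413-164796712: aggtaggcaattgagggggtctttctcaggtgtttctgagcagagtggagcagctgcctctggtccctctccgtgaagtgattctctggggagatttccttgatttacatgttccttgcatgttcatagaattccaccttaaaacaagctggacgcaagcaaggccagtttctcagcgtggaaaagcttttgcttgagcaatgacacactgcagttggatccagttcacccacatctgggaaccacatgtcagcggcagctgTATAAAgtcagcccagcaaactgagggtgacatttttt

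The TATA box letters occur once in Vim and once in Dpt and in neither of the other two windows, and 13.6% of 32851 promoters of the same length hold them on either strand. The GC box letters GGGCGG, which 35.7% of these promoters hold, and the AP-1 letters TGANTCA, which 7.81% hold, were found in none of the 4 windows on either strand, so no match overlapped another. Pdgfra, Cd34 and Dpt had a GC content of 51%, 50% and 48.7%, and Vim of 59.3%, against a median of 52.7% over all promoters. Such a match describes letters in a window and not a site that is used. The windows follow RefSeq starts, which differ from the GENCODE coordinates given below with each gene. By those coordinates the whole Vim window lies within the gene, 13573927 to 13582826.

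Before the levels are given, several libraries need a remark. Columns were assigned to samples by their headers, and in 15 of 20 files the header names another sample than the one holding the file, with another age group in 2 cases (5-week replicate 3 and 8-week replicate 3) and the other set in 2 (aged replicates 2 and 5). No header names aged replicate 3, which was not analysed here. Recomputed totals were 19100690 to 30689439 reads in the 14 libraries of the later set and 12204573 to 14448283 in the 6 of the earlier set. Levels of 12 uterine genes were read, with Hoxa10 at 46.7 to 567 CPM, and 1 of them, Foxa2, was called between aged and 8-week uteri. All 12 were listed in every library, but every file lists the same genes, so their listing cannot check the labelled tissue. For several of the fibroblast markers 5-week replicate 3 and 8-week replicate 6 lay with the aged libraries and aged replicate 5 lay with the younger ones, as given gene by gene.

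Pamr1 (ENSMUSG00000027188; GRCm38 chromosome 2, 102550012 to 102643041, plus strand) had 2.56 to 114 CPM at 5 weeks with a median of 30.7, 2.21 to 108 CPM at 8 weeks with a median of 27.7, and 61.8 to 308 CPM in aged uteri with a median of 133. In the earlier set it had 3.05 and 2.56 CPM at 5 weeks, 2.21 and 2.25 CPM at 8 weeks, and 142 and 61.8 CPM in aged uteri. In the later set the aged libraries had 308, 71.5, 297 and 125 CPM, against 16.8 to 114 CPM at 5 weeks and 19.3 to 108 CPM at 8 weeks. Thus the ages overlapped in the later set, where aged replicate 5 (71.5 CPM) lay below 5-week replicate 3 (114 CPM) and below 8-week replicates 4 and 6 (86.4 and 108 CPM), but not in the earlier set. Across both sets 4 of 6 aged libraries lay above all 14 younger ones. The fitted log2 change on the CPM + 1 scale was 2.75 ± 0.57 (SE) between aged and 8-week uteri, 6.74-fold, and 2.69 ± 0.57 between aged and 5-week uteri, 6.44-fold. Within the later set alone the changes were 1.77 and 1.77, and within the earlier set alone 4.87 and 4.64.

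Pamr1 did not differ detectably between the 2 younger ages, with 43.0 ± 41.6 CPM at 8 weeks and 43.4 ± 41.7 CPM at 5 weeks (SD, n = 7 each) and a log2 change of -0.07 (95% interval -1.21 to 1.08; limma adjusted p = 0.9999). Between the sets it did, with 7.39-fold higher levels in the later set, fitted over all ages together (log2 2.88 ± 0.50, adjusted p = 8.72e-05). The set contrast was called for 58.7% of all genes, 20.5% higher and 38.3% lower in the later set. Young uteri of the later set, at 16.8 to 114 CPM, all lay above those of the earlier set, at 2.21 to 3.05 CPM, which rest on as few as 27 reads. In aged uteri the sets overlapped, at 71.5 to 308 CPM in the later and 61.8 to 142 CPM in the earlier set, so the fitted fold does not describe each age.

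**Figure D1:**
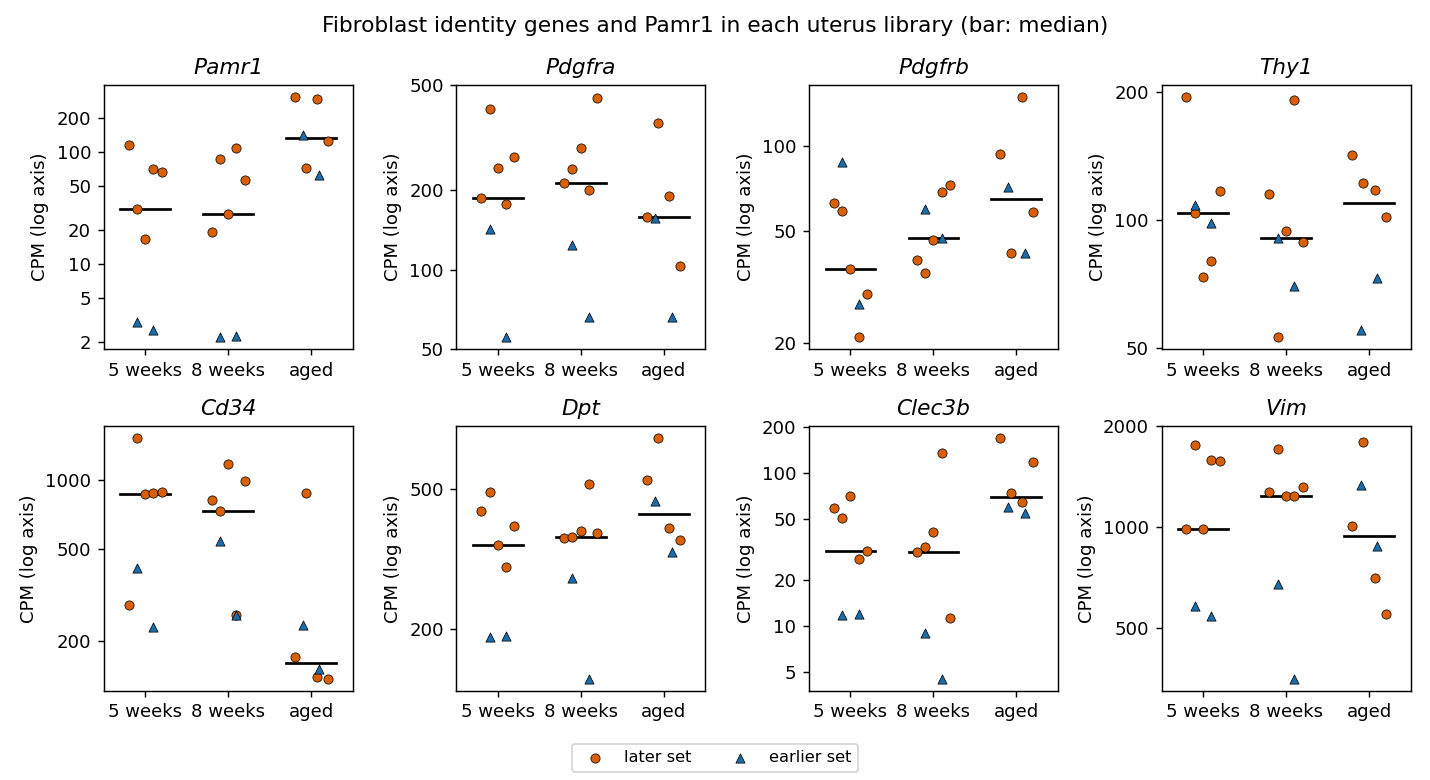
Level of each of the 8 genes in every library, in CPM on a log axis, with the ages from 5 weeks to aged on the horizontal axis, circles for the later set, triangles for the earlier set and bars for the median of each age. For Pamr1 the 4 young libraries of the earlier set lie at 2.21 to 3.05 CPM and the 6 aged libraries at 61.8 to 308 CPM, and for Cd34 5 of 6 aged libraries lie at 138 to 236 CPM with the sixth at 874 CPM.

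The 7 fibroblast markers did not move together with age. Clec3b rose and Cd34 fell in aged uteri against both younger ages, and the other 5 did not pass the test in either comparison. Thus 2 of 7 were called between aged and 8-week uteri, 1 higher and 1 lower, where 17.2% of all 12791 genes were called, 8.64% higher and 8.53% lower. Likewise 2 of 7 were called between aged and 5-week uteri, where 22.1% of all genes were, 12.7% higher and 9.41% lower. Their median log2 change was 0.08 between aged and 8-week uteri and -0.07 between aged and 5-week uteri, beside medians over all genes of 0.05 and 0.09. In whole tissue, a change in the number of cells of a type and a change in RNA per cell cannot be told apart.

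**Figure D2:**
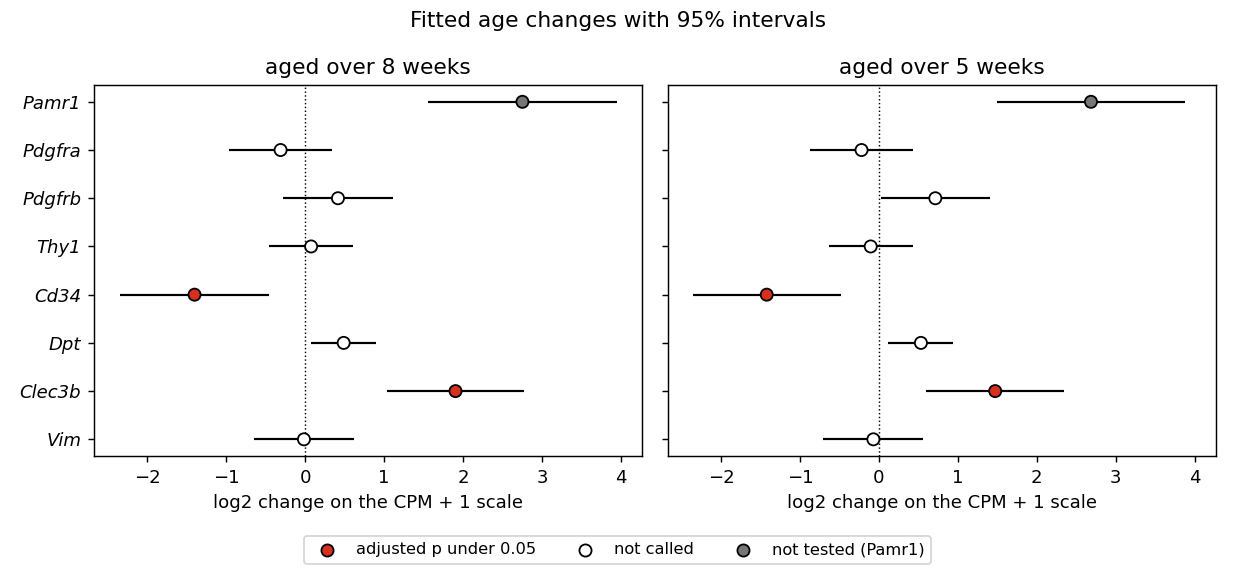
Fitted log2 change of each gene on the CPM + 1 scale, aged over 8 weeks on the left and aged over 5 weeks on the right, with points for the estimate, lines for the 95% interval, red for an adjusted p under 0.05, white for genes not called and grey for Pamr1, which was not tested. Clec3b lies at 1.90 and 1.47 and Cd34 at -1.40 and -1.42, on opposite sides of 0. The interval of Pamr1 is not to be read as a test, since Pamr1 was chosen for its higher level in aged uteri.

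Clec3b (ENSMUSG00000025784; chromosome 9, 123150946 to 123157432, plus strand) had 11.8 to 70.8 CPM at 5 weeks with a median of 31.2, 4.51 to 136 CPM at 8 weeks with a median of 30.3, and 54.6 to 170 CPM in aged uteri with a median of 69.8. Of the 14 younger libraries 11 lay below every aged one, and the exceptions were 5-week replicates 3 and 5 (58.95 and 70.8 CPM) and 8-week replicate 6 (136 CPM). The log2 change was 1.90 ± 0.42 between aged and 8-week uteri (3.74-fold, adjusted p = 0.0046) and 1.47 ± 0.42 between aged and 5-week uteri (2.78-fold, adjusted p = 0.017). Within the later set these were 1.42 and 1.13, and within the earlier set 2.97 and 2.18. In the later set alone neither passed (adjusted p = 0.222 and 0.240), nor did they with no term for the set (0.0678 and 0.143), and over all alternatives the adjusted p ran from 0.000274 to 0.222 and from 0.00348 to 0.240.

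Clec3b binds plasminogen, and of 8 other genes of the plasminogen system tested, of 11 on the list, 0 rose and 2 fell between aged and 8-week uteri, with a median log2 change of 0.25, where 8.64% of all genes were higher and 8.53% lower. The genes that fell were Anxa2 (-1.03 ± 0.23, adjusted p = 0.00525) and S100a10 (-0.74 ± 0.22, adjusted p = 0.029), the 2 partners of the annexin complex that docks plasminogen at the cell surface. Against 5-week uteri 1 of the 8 rose and 2 fell, where 12.7% of all genes were higher and 9.41% lower.

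Dpt (ENSMUSG00000026574; chromosome 1, 164796644 to 164824266, plus strand), the other matrix protein, had 189.9 to 491 CPM at 5 weeks, 145 to 516 CPM at 8 weeks and 332 to 698 CPM in aged uteri, with medians of 347, 366 and 426 CPM. Aged replicates 4 and 5 (532 and 698 CPM) lay above every younger library, and the other 4 aged libraries lay within the range of the younger ones. The log2 change was 0.49 ± 0.20 against 8 weeks (adjusted p = 0.0937) and 0.53 ± 0.20 against 5 weeks (adjusted p = 0.0582), so it was not called in either comparison. Its 95% intervals ran from 0.08 to 0.90 and from 0.12 to 0.95. Against 5 weeks it was called with quantile normalization (0.67, adjusted p = 0.0349) and without 5-week replicate 4, 8-week replicate 2 or aged replicate 6 or 7 (adjusted p = 0.0236 to 0.0451), and against 8 weeks without aged replicate 7 (0.61, adjusted p = 0.0404). Over all alternatives the adjusted p ran from 0.0236 to 0.454 against 5 weeks and from 0.0404 to 0.609 against 8 weeks.

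Cd34 (ENSMUSG00000016494; chromosome 1, 194938819 to 194961279, plus strand) had 230.0 to 1512 CPM at 5 weeks with a median of 869.7, 259.8 to 1175 CPM at 8 weeks with a median of 730.5, and 138 to 874 CPM in aged uteri with a median of 162. The 6 aged libraries had 236, 152, 171, 874, 141 and 138 CPM. Aged replicate 5, at 874 CPM, lay at the level of the young libraries of its set, while 5-week replicate 3 (288 CPM) and 8-week replicate 6 (261 CPM) lay far below the other 8 young libraries of the later set, which had 730.5 to 1512 CPM. Of the aged libraries 4 of 6 lay below all 14 younger ones.

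The log2 change of Cd34 was -1.40 ± 0.45 between aged and 8-week uteri (2.64-fold lower, adjusted p = 0.0384) and -1.42 ± 0.45 between aged and 5-week uteri (2.68-fold lower, adjusted p = 0.0292). Within the later set the changes were -1.61 and -1.75, and within the earlier set -0.98 and -0.70. The call against 8 weeks ended without 8-week replicate 1, 3, 5 or 7 or aged replicate 2, 4, 6 or 7 (adjusted p = 0.0628 to 0.0857), and the call against 5 weeks without 5-week replicate 1, 4, 6 or 7 or aged replicate 2, 4, 6 or 7 (adjusted p = 0.0508 to 0.0704). Without aged replicate 5 the changes were -1.76 (adjusted p = 0.00605) and -1.78 (adjusted p = 0.00446). Neither call held with no term for the set (adjusted p = 0.0881 and 0.0679), in the later set alone (0.209 and 0.110) or in the earlier set alone (0.1285 and 0.271), and the first did not with columns attached by file (0.1205). Over all alternatives the adjusted p ran from 0.00605 to 0.209 against 8 weeks and from 0.00428 to 0.271 against 5 weeks. A share of 2.03% of the exon length of Cd34 lies over a gene on the other strand, and the library kit does not keep the strand.

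Vascular endothelium also carries Cd34. Of 20 endothelial markers tested, 1 rose and 0 fell between aged and 8-week uteri, with a median of 0.39 and 8.64% of all genes higher, and the one that rose was Cldn5, a tight junction protein of vessel walls (1.62 ± 0.32, adjusted p = 0.00218). Their summed level was 457 to 1040.2 CPM at 5 weeks, 454 to 1155 CPM at 8 weeks and 834 to 1265 CPM in aged uteri. Pecam1, an adhesion molecule of endothelium, had a log2 change of 0.38 ± 0.36 (adjusted p = 0.502), and the endothelial cadherin Cdh5 one of 0.08 ± 0.31 (adjusted p = 0.892). Against 5-week uteri 3 of the 20 endothelial markers rose and 0 fell, where 12.7% of all genes were higher. The part of endothelial cells in the level of Cd34 was not tested.

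Thy1 (ENSMUSG00000032011; chromosome 9, 44043384 to 44048579, plus strand) had 73.6 to 195 CPM at 5 weeks, 53.0 to 191 CPM at 8 weeks and 55.2 to 142 CPM in aged uteri, with medians of 104, 90.6 and 110 CPM. The highest values were in the young libraries 5-week replicate 3 (195 CPM) and 8-week replicate 6 (191 CPM), above all aged libraries. The log2 change was 0.08 ± 0.25 against 8 weeks (95% interval -0.45 to 0.61, adjusted p = 0.872) and -0.10 ± 0.25 against 5 weeks (-0.63 to 0.43, adjusted p = 0.799). Of 14 T cell markers 2 were listed and of 10 nerve markers 2, none of which was called between aged and 8-week uteri, and the T cell gene Cd3e was not among the genes analysed here. Against 5-week uteri 1 of the 2 T cell markers and 1 of the 2 nerve markers were called higher, where 12.7% of all genes were. The summed nerve markers were highest in the young groups in these same libraries, with 23.2 CPM in 5-week replicate 3 and 22.8 CPM in 8-week replicate 6, and the part of nerve in the level of Thy1 was not tested.

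Of the PDGF receptors, Pdgfra (ENSMUSG00000029231; chromosome 5, 75152292 to 75198215, plus strand) had 55.4 to 405 CPM at 5 weeks, 66.2 to 445 CPM at 8 weeks and 66.1 to 359 CPM in aged uteri, with medians of 187, 212 and 158 CPM. The groups overlapped almost entirely. Its log2 change was -0.31 ± 0.31 against 8 weeks (95% interval -0.96 to 0.34, adjusted p = 0.521) and -0.22 ± 0.31 against 5 weeks (-0.87 to 0.43, adjusted p = 0.646). In the later set 3 of 4 aged libraries (158, 190.5 and 103 CPM) lay below all 5 8-week libraries (199.5 to 445 CPM), and aged replicate 5, at 359 CPM, did not. A share of 6.50% of its exon length lies over other annotated genes.

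Pdgfrb (ENSMUSG00000024620; chromosome 18, 61045150 to 61085061, plus strand) had 20.9 to 88.1 CPM at 5 weeks, 35.3 to 73.1 CPM at 8 weeks and 41.6 to 149.9 CPM in aged uteri, with medians of 36.6, 47.2 and 65.1 CPM. Aged replicates 4 and 6 (94.0 and 149.9 CPM) lay above every younger library, and aged replicates 2 and 5 (41.9 and 41.6 CPM) lay below the median of the 8-week libraries. The log2 change was 0.42 ± 0.33 against 8 weeks (adjusted p = 0.409) and 0.72 ± 0.33 against 5 weeks (95% interval 0.02 to 1.41, adjusted p = 0.125). Against 5 weeks it was called without 5-week replicate 1 (0.94, adjusted p = 0.047) and without the 4 libraries whose header and file differ in age or set (1.17, adjusted p = 0.0318), an alternative chosen after seeing the data, and over all alternatives the adjusted p ran from 0.0318 to 0.851.

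Pericyte markers, beside Pdgfrb, had a median log2 change of 0.35 over 13 genes between aged and 8-week uteri, with 1 higher, Gucy1a1, a subunit of the nitric oxide receptor of vessel walls (1.30 ± 0.37, adjusted p = 0.0217), and 0 lower, where 8.64% of all genes were higher and 8.53% lower. Their summed level was 878 to 1962 CPM at 5 weeks, 901 to 2357 CPM at 8 weeks and 1100.0 to 4265 CPM in aged uteri. Rgs5, a defining pericyte gene, had a log2 change of 0.14 ± 0.49 (adjusted p = 0.873). The part of pericytes in the level of Pdgfrb was not tested. Among 24 genes of PDGF ligands and of proteins that act on or directly after the receptors, 0 rose and 1 fell against 8 weeks, the adaptor Crk (-0.52 ± 0.14, adjusted p = 0.0146), and 2 rose and 1 fell against 5 weeks. Of all genes 17.2% and 22.1% were called in these 2 comparisons.

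Vim (ENSMUSG00000026728; chromosome 2, 13573927 to 13582826, plus strand) had 542 to 1752 CPM at 5 weeks, 353 to 1705 CPM at 8 weeks and 551 to 1789.7 CPM in aged uteri, with medians of 990.3, 1238 and 942 CPM. The log2 change was -0.02 ± 0.30 against 8 weeks (95% interval -0.65 to 0.62, adjusted p = 0.979) and -0.07 ± 0.30 against 5 weeks (-0.70 to 0.56, adjusted p = 0.891). In the earlier set both aged libraries (1335 and 876 CPM) lay above all 4 younger ones (353 to 676 CPM). In the later set 2 of 4 aged libraries (706 and 551 CPM) lay below all 10 younger ones, and aged replicate 5 (1789.7 CPM) above them. The change against 8 weeks was thus -0.55 in the later set and 1.14 in the earlier set, a difference of -1.70 ± 0.54 that did not pass over all genes (unadjusted p = 0.00553, adjusted p = 0.162).

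Of 11 other intermediate filament and linker genes tested, 2 rose and 1 fell between aged and 8-week uteri, where 17.2% of all genes were called, with a median of 0.17. Synm, an intermediate filament protein that assembles with desmin and vimentin, rose by 1.39 ± 0.39 (adjusted p = 0.0211), and the linker Dst by 1.13 ± 0.25 (adjusted p = 0.00447). Lmnb1, a lamin of the nuclear envelope, had a log2 change of -1.49 ± 0.30 (adjusted p = 0.00248).

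**Figure D3:**
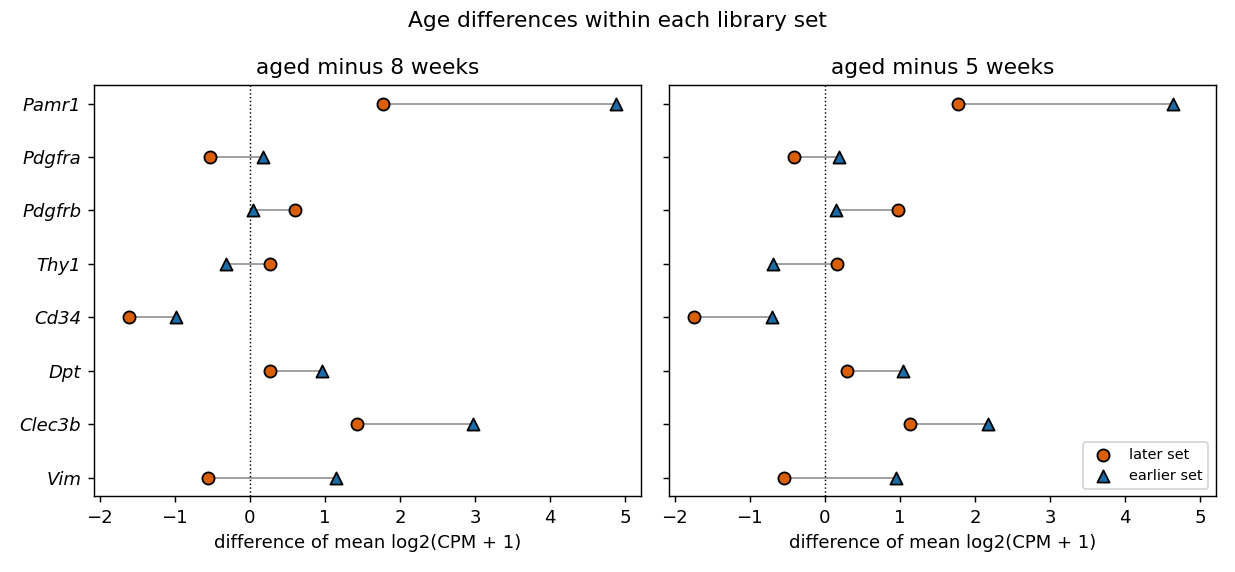
Difference of mean log2(CPM + 1) of each gene within the later set (circles) and within the earlier set (triangles), aged minus 8 weeks on the left and aged minus 5 weeks on the right, joined by a line. Pamr1, Clec3b and Dpt lie right of 0 in both sets and Cd34 left of 0 in both, while Vim lies at -0.55 in the later and 1.14 in the earlier set for aged minus 8 weeks.

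Whether the age change of a fibroblast marker differed between the sets was tested for aged against 8 weeks and 0 of 7 were called, where 3 genes of all, 0.0235%, were, with limma. At an unadjusted p under 0.05 this difference passed for Vim alone among the 7 and for 1855 genes of all. For aged against 5 weeks limma called 0 genes of all (0%), with 1079 at an unadjusted p under 0.05. Fitted differences between the sets (later minus earlier) were -1.55 ± 0.88 for Clec3b (adjusted p = 0.441) and -0.63 ± 1.00 for Cd34 (adjusted p = 0.811). For Pamr1 the difference was -3.11 ± 1.03, given with no test.

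Between the sets 4 of 7 markers were called, a share near the 58.7% of all genes called in that contrast. Pdgfra (2.44-fold), Dpt (1.70-fold), Clec3b (3.19-fold) and Vim (1.80-fold) were higher in the later set, with adjusted p-values of 0.000551, 0.000917, 0.000715 and 0.0103, so all 4 were higher, where 20.5% of all genes were. These folds are fitted over all ages together. Mean Vim was 1366 CPM in the later and 538 CPM in the earlier set in younger uteri. In aged uteri it was 1014 and 1105 CPM, so there it was not higher in the later set. Pdgfra, Dpt and Clec3b had higher means in the later set in younger and in aged uteri. Cd34 (log2 0.86 ± 0.40, adjusted p = 0.0668), Thy1 (0.42 ± 0.22, adjusted p = 0.116) and Pdgfrb (0.01 ± 0.29, adjusted p = 0.985) did not pass. The median over all genes was -0.20 in this contrast, where 2618 genes were higher and 4894 lower, and with median centring 4330 were higher and 3497 lower and Thy1 and Cd34 were called too, 6 of 7. With quantile normalization 3683 genes were higher and 3838 lower, Thy1 was called and Vim was not (0.36, adjusted p = 0.272). Markers of other tissues moved with the set as well: of 15 epithelial markers 10 were lower and 0 higher in the later set, and of 13 smooth muscle markers 7 were higher and 0 lower. Their part in the markers' differences was not tested.

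Between the 2 younger ages, 0 of the 7 fibroblast markers were called by limma, and 0% of all genes were, with 139 genes of all at an unadjusted p under 0.05 and none of the 7 markers among them. Of the 7, Clec3b had the log2 change farthest from 0, -0.43 with a 95% interval of -1.27 to 0.41. Its mean CPM did not share that sign, with 37.9 ± 45.4 CPM at 8 weeks and 37.5 ± 23.1 CPM at 5 weeks (SD, n = 7 each), and the 8-week mean includes replicate 6 at 136 CPM. Cd34 had an interval of -0.92 to 0.88 and Vim one of -0.66 to 0.55.

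Counted by overlap, 0 of the 8 genes separated all 6 aged from all 14 younger libraries, where 1.16% of all genes did. Within the later set 0 of 8 separated 4 aged from 10 younger libraries, where 3.31% did. Within the earlier set, with 2 aged and 4 younger libraries, Pamr1, Dpt, Clec3b and Vim were higher in both aged libraries than in all younger ones, 4 of 8. In that set 55.6% of all genes separated, 30.8% higher and 24.8% lower in aged uteri. This share leaves little to read from Dpt, Clec3b and Vim. Pamr1 was chosen for its level in aged uteri, so its place in that count is no result.

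Differences between genes of the same library describe these values again, with no test, and Pamr1 was chosen for its level in aged uteri, which sets the direction of the first of them. Pamr1 minus the mean of the 7 markers, on the log2(CPM + 1) scale, was -2.88 ± 1.67 at 5 weeks (SD, n = 7), -2.91 ± 1.65 at 8 weeks (n = 7) and -0.42 ± 0.97 in aged uteri (n = 6). The marker mean itself was 7.46 ± 0.54, 7.43 ± 0.58 and 7.55 ± 0.41 on the same scale, with differences smaller than the SD within an age. By set, the marker mean was 7.73, 7.73 and 7.71 in the later set and 6.79, 6.66 and 7.23 in the earlier set. In aged replicates 4 and 6 Pamr1 exceeded the marker mean, by 0.43 and 0.65, and in none of the younger libraries did it. Aged replicate 5 (-1.98) lay below 5-week replicates 3, 6 and 7 and 8-week replicates 4, 6 and 7.

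Clec3b minus Cd34 was picked after the values were seen, as the marker called higher and the marker called lower in aged uteri, so its direction restates those 2 calls. It was -4.24 ± 1.01 at 5 weeks, -4.65 ± 1.77 at 8 weeks and -1.38 ± 1.29 in aged uteri. In 5 of 6 aged libraries it lay between -1.96 and -0.01 and in aged replicate 5 at -3.54, while of the younger libraries only 8-week replicate 6 (-0.93) reached that range and 5-week replicate 3 (-2.27) came nearest. For the pair of receptors, Pdgfra minus Pdgfrb had medians of 2.70 at 5 weeks, 2.40 at 8 weeks and 0.78 in aged uteri. Here the set mattered as well: the 4 younger libraries of the earlier set had 0.48 to 1.04, within the 0.34 to 1.12 of the aged libraries other than replicate 5, which had 3.08. In the later set the younger libraries had 1.53 to 3.12, the lowest being 8-week replicate 6 (1.53) and 5-week replicate 3 (1.56). Both genes of each pair enter with their own length, so only differences of these values between libraries are compared.

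**Figure D4:**
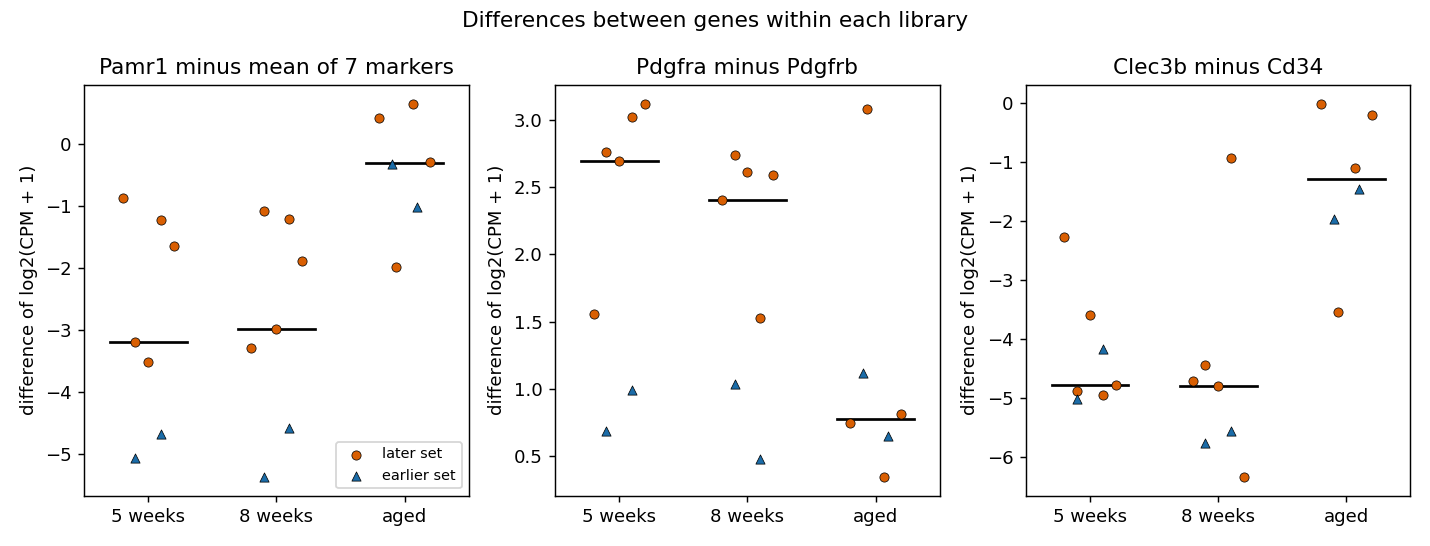
Differences of log2(CPM + 1) between genes of the same library, for Pamr1 minus the mean of the 7 markers, Pdgfra minus Pdgfrb and Clec3b minus Cd34, by age from 5 weeks to aged, with circles for the later set, triangles for the earlier set and bars for medians. In all 3 panels aged replicate 5 stands apart from the other 5 aged libraries, at -1.98, 3.08 and -3.54.

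Per kilobase of exon, Vim and Dpt were the most abundant of the 8 genes at every age. The order of median CPM per kilobase at 5 weeks was Vim (209), Dpt (201), Cd34 (119), Thy1 (34.8), Clec3b (31.4), Pdgfra (18.7), Pdgfrb (6.68) and Pamr1 (5.08). At 8 weeks it was the same except that Clec3b (30.5) and Thy1 (30.3) changed places. In aged uteri it was Dpt (247), Vim (199), Clec3b (70.3), Thy1 (36.7), Cd34 (22.2), Pamr1 (22.1), Pdgfra (15.7) and Pdgfrb (11.9). Neighbours in these orders overlapped in range throughout, except Clec3b and Thy1 in aged uteri, where the lowest Clec3b value (55.0) was above the highest Thy1 value (47.5). In 7 of 7 libraries at each younger age Dpt was above Cd34. In aged uteri Cd34 was above Pamr1 in 3 of 6 libraries.

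Across the 20 libraries, centred within age and set so that neither sets the relation, 3 genes varied together: the correlation (Pearson r of log2(CPM + 1)) was 0.75 for Pdgfra and Cd34, 0.73 for Cd34 and Vim and 0.66 for Pdgfra and Vim. In the 14 libraries of the later set alone, with age not removed, these were 0.78, 0.80 and 0.70. In the later set alone, with age not removed, Dpt correlated at 0.24 with Vim, 0.28 with Pdgfra and -0.10 with Cd34. Centred within age and set these were 0.69, 0.58 and 0.34. Clec3b, Thy1 and Pdgfrb correlated with one another at 0.17 to 0.47 and negatively with Cd34, at -0.41, -0.42 and -0.26. Pamr1 correlated at -0.59 with Cd34 and at -0.16 with Pdgfra. Centred within set only, so that age differences count, Pamr1 correlated at 0.70 with Clec3b and 0.62 with Dpt, which were 0.12 and 0.05 once age was removed too. All values of a library share its depth and its tissue makeup, and these correlations are descriptions.

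**Figure D5:**
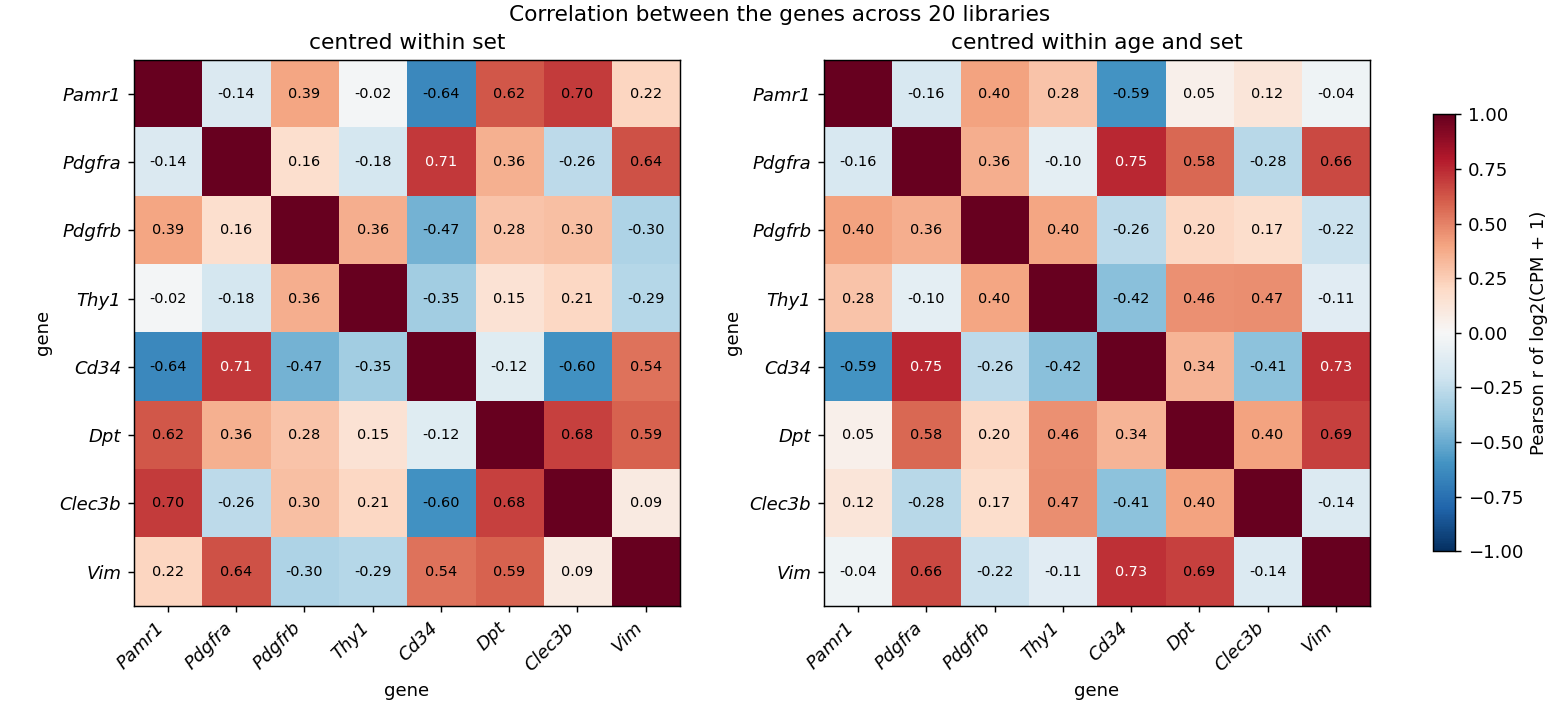
Pearson correlation of log2(CPM + 1) between each pair of the 8 genes across 20 libraries, centred within set on the left and within age and set on the right, coloured from -1 (blue) to 1 (red). On the right Pdgfra, Cd34 and Vim have 0.66 to 0.75 with one another, and Dpt has 0.69 with Vim, 0.58 with Pdgfra and 0.34 with Cd34. Pamr1 with Clec3b is 0.70 on the left and 0.12 on the right.

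The 3 genes that varied together were also set beside the summed markers of fibroblasts and of other cell types. Centred within age and set, Pdgfra correlated at 0.86 with the sum of 45 other fibroblast and stromal markers, at 0.70 with 13 smooth muscle markers and at -0.84 with 8 mesothelial markers, the outer lining of the uterus. Cd34 correlated at 0.69 with the other fibroblast markers, at 0.38 with the smooth muscle ones and at -0.71 with the mesothelial ones. For Vim these were 0.71, 0.59 and -0.54. Dpt correlated at 0.73 with the other fibroblast markers. Pamr1 correlated at -0.24 with the other fibroblast markers and at 0.65 with 12 leukocyte markers. The summed smooth muscle markers ran from 2164 to 30085 CPM over the libraries and the mesothelial ones from 305 to 2627 CPM, with aged replicate 5 the highest in smooth muscle and aged replicate 7 the lowest of the later set. What the mix of tissue in each piece contributes was not tested.

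The genes most like Pamr1 across libraries, by r centred within set, were Pik3ip1 (0.97), an inhibitor of phosphoinositide 3-kinase, Tmem159 (0.95), a lipid droplet protein, Grina (0.95), a membrane protein that inhibits cell death, Hscb (0.95), a cochaperone of iron-sulfur cluster assembly, and Xpa (0.95), a factor of DNA excision repair. With age removed as well their r with Pamr1 was 0.91, 0.81, 0.85, 0.84 and 0.82, and in the 14 libraries of the later set alone 0.94, 0.88, 0.91, 0.91 and 0.92. These genes were picked for the highest r in the same libraries, so such values are no separate check of the likeness. Of the 7 fibroblast markers Clec3b had the highest r centred within set (0.70), at rank 807 of all genes, and Cd34, with a negative r (-0.64), was at rank 11449. These ranks include the age difference by which Pamr1 was chosen. With age removed as well, Clec3b had 0.12, below Pdgfrb (0.40) and Thy1 (0.28).

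Beyond the 7 markers, 45 of 46 other fibroblast and stromal markers were tested. Between aged and 8-week uteri 4 rose, 4 fell and 37 did not pass, with a median of 0.11, near the share of 17.2% called over all genes. Between aged and 5-week uteri 8 rose and 7 fell, with a median of 0.10, where 22.1% of all genes were called. Against 8-week uteri the largest called changes were rises, of Dpp4, a surface peptidase of fibroblasts (1.47 ± 0.34, adjusted p = 0.00636), the chemokine Cxcl12 (1.46 ± 0.34, adjusted p = 0.00729) and Gsn, an actin-severing protein (1.36 ± 0.28, adjusted p = 0.00269). The lowest change on the list was -1.23 in that comparison. Hand2, a transcription factor of endometrial stroma, had a log2 change of -0.46 ± 0.20 against 8-week uteri (adjusted p = 0.123).

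Other cell types were measured beside the fibroblast genes. Of 12 leukocyte markers 3 rose and 0 fell against 8 weeks, where 8.64% of all genes were higher, with a median of 0.24: the receptor Kit of mast cells and progenitors (1.48 ± 0.35, adjusted p = 0.00779), the lysosomal protein Laptm5 (1.43 ± 0.37, adjusted p = 0.0124) and the macrophage receptor Csf1r (0.95 ± 0.32, adjusted p = 0.0453). Ptprc, the common marker of leukocytes, had a log2 change of -0.01 ± 0.31 (adjusted p = 0.992). Summed leukocyte markers were 461 to 912 CPM at 5 weeks, 482 to 1299 CPM at 8 weeks, highest in replicate 6, and 768 to 1269 CPM in aged uteri. Against 5 weeks 2 of 13 smooth muscle markers rose, where 12.7% of all genes were higher, and 0 of 8 mesothelial markers were called by limma. Against 8 weeks 0 of either list were called, with medians of 0.41 and 0.72. In that comparison Acta2 (0.01 ± 0.58, adjusted p = 0.992), Msln (0.69 ± 0.44, adjusted p = 0.294) and Epcam (-0.45 ± 0.28, adjusted p = 0.288) did not pass.

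Of 15 epithelial markers 3 rose and 0 fell, Prom1 (1.81 ± 0.41, adjusted p = 0.00525), the gland transcription factor Foxa2 (1.54 ± 0.40, adjusted p = 0.0122) and the tight junction gene Cldn4 (1.13 ± 0.33, adjusted p = 0.0262), and the median was -0.33, where 8.64% of all genes were higher. All 20 cell cycle genes tested fell, where 8.53% of all genes were lower, with a median of -2.95, and their summed level was 886 to 3720.0 CPM at 5 weeks, 808 to 4290.4 CPM at 8 weeks and 211 to 980.2 CPM in aged uteri. They included Ube2c (-3.48 ± 0.36, adjusted p = 6.77e-05), Ccnb1 (-3.35 ± 0.46, adjusted p = 0.000207) and Cdk1 (-3.31 ± 0.42, adjusted p = 0.000137), which drive the exit from and entry into mitosis. Centred within set, the summed cell cycle markers correlated at -0.79 with Pamr1, -0.77 with Clec3b and 0.67 with Cd34, and with age removed too at -0.28, -0.42 and 0.38. The part of these differences in the levels of Pamr1, Clec3b and Cd34 was not tested.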

How the data were processed

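Whole mouse uteri were profiled by RNA sequencing. The deposited values are CPM, reads per gene scaled by the authors to a common library total. GRCm38, edgeR, featureCounts, STAR and fastp appear in the submitters' processing notes, with no roles or versions. The 20 columns were assigned by header. All values were whole multiples of the worth of 1 read (tolerance 1e-06), and no listed gene had fewer than 10 reads in any library. Total reads ran from 12204573 to 30689439, and more deeply sequenced libraries give more precise values.

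Values were taken as log2(CPM + 1) and fitted across all 12791 genes with limma 3.58.1 (R 4.3.3), with age group and set as terms and moderated variances with a trend. Tests were two-sided, p-values were Benjamini-Hochberg adjusted over all genes, and a gene was called at an adjusted p under 0.05. The fit was tested on simulated data. Intervals of 95% use the t quantiles of the fit. The labels do not say whether replicates came from separate animals, so p-values measure only the spread between these samples, which may be technical.

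Coordinates are from GENCODE release M21, which held 12767 of the gene identifiers, and promoters from RefSeq. Named were the 8 genes, at most the 3 largest changes past the threshold in aged against 8-week uteri from each list, the 5 genes most like Pamr1 and fixed markers of cell types that also carry one of the genes. The genes and lists were chosen with earlier results of these data known. Pamr1 has no test against aged uteri, since it was chosen for that difference. Alternatives changed the pseudocount, a filter on low values, the scaling, the set term, the set analysed, the attachment of columns, a replicate block, and each library in turn.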

Additional observations from a re-analysis of the deposited data

Results flagged for a closer look

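In 3 of 24 groups of one gene at one age, 1 library lay far from the rest by the gap to its neighbour over the range of the group. This rule flags about 1 in 20 groups drawn from a normal distribution. The groups here hold CPM and pool the earlier and later sets, so that rate may not apply to them. Cd34 in aged replicate 5 had 874 CPM, against 236 CPM in the next of 6 aged libraries, a gap of 0.867 of the range. Clec3b in 8-week replicate 6 had 136 CPM, against 41.3 CPM in the next of 7, a gap of 0.720 of the range. Thy1 in 5-week replicate 3 had 195 CPM, against 117 CPM in the next of 7, a gap of 0.641 of the range.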

How the results depend on the processing

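Counts of the 7 fibroblast markers called were 2 for aged against 8 weeks, 2 for aged against 5 weeks, 0 for 8 against 5 weeks and 4 for the later against the earlier set, and 0 for the difference of the aged change between sets. With no set term and with the later set alone the first and second counts were 0 and 0, and with the earlier set alone 1 and 1. With columns attached by file the first was 1, the set contrast 1 and the difference between sets 3 (Pdgfra, Dpt and Vim). The cause of these changes was not tested. Without 1 library at a time the counts ran from 1 to 2, from 1 to 3, from 0 to 0, from 3 to 5 and from 0 to 0. Without the 4 libraries whose header and file differ in age or set, chosen after seeing the data, the first and second counts were 2 and 3, and Cd34 and Clec3b were called in both. Pseudocounts of 0.25 and 5, a mean CPM of at least 5 and robust moderation left these 5 counts as they were. No called value changed sign in any alternative run. The aged change of Pamr1 ran from 1.77 to 4.87 against 8 weeks and from 1.77 to 4.64 against 5 weeks. Its interaction with the set was -2.10 at a pseudocount of 5. Over all genes, 2196 calls for aged against 8 weeks and 2825 for aged against 5 weeks became 969 and 1380 with no set term and 183 and 523 in the later set alone. The calls for aged against 8 weeks were 3613 in the earlier set alone, 565 by file, 1429 without the 4 libraries and 1454, 1358 and 1309 without 8-week replicate 1, 8-week replicate 2 or aged replicate 1. The 7512 calls between sets became 3403 by file. The 3 calls for the difference between sets became 16 at a pseudocount of 5, 45 with median centring, 64 with quantile normalization, 7 with the filter, 126 without the 4 libraries, 1086 by file and 0 to 49 without 1 library, and the 0 calls of its counterpart against 5 weeks became 1, 1, 6, 0, 13, 245 and 0 to 14.

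The labels give the groups the same replicate numbers, and deviations of same-numbered samples correlated at -0.506 to 0.279 over 19 pairs, over 0.1 in 10 of them. Replicates 1 and 2 gave the same values by construction, since the earlier set has 2 libraries per age. Pairs with different numbers were not compared, so these values cannot tell whether same-numbered samples are paired. With the replicate block 2 and 2 markers were called, and 1637 and 2413 genes of all. Planned tests on counts and TMM scaling were not run: the values are whole multiples of a step, but none stands for fewer than 10 reads, so they were not accepted as read counts and were kept as CPM. Depth limits Pamr1 most, with 27 reads in its lowest library.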
